A study of Mus musculus with 12 samples.

Results

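The genes described here code for proteins of caveolae, transverse tubules and plasma membrane repair in muscle cells. They are the caveolins Cav1, Cav2 and Cav3, the caveolar ATPase Ehd2, the membrane-bending protein Bin1, the ferlins Dysf and Myof, the repair protein Trim72 and the annexins Anxa1 and Anxa2. They were chosen by name, through the RefSeq accession of each probe, and make up 10 of the 19259 named genes on the array. Together they had 13 probes, 2 each for Cav2, Dysf and Bin1 and 1 for each other gene.

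Caveolae are small flask-shaped pits of the plasma membrane, built on caveolins and coated by cavins, that flatten when the membrane is stretched. Transverse tubules are deep infoldings of the muscle surface membrane that carry the action potential into the fibre, and both CAV3 and BIN1 take part in their formation. When a muscle membrane tears, calcium enters and dysferlin, TRIM72 (also known as MG53) and annexins gather at the wound with vesicles that patch it, and loss of CAV3 or dysferlin function causes muscular dystrophies.

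C2C12 is an immortalised mouse myoblast line, whose cells stop dividing and fuse into myotubes when serum is lowered. The 4 groups were dividing cells in medium with 10% fetal bovine serum, called proliferation below, and cells kept for 2, 5 or 8 days in medium with 2% horse serum. The labels give 3 independent experiments for each group and no genotype or agent beside the serum, and total RNA of each was labelled with Cy3 and hybridised to a one-colour Agilent array. Since it is not stated whether experiments used separate cultures, p-values measure only the spread between these 12 arrays, which may be technical.

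Levels below are log2 signals relative to the 75th percentile of the same array, so 0 is that percentile and a step of 1 is a doubling, and they can be compared between arrays for a probe but not between probes. Changes are log2 differences of stage means ± SE from limma with n = 3 arrays per stage, called where the Benjamini-Hochberg adjusted p over 22959 tested probes is under 0.05. The 12 arrays lay on 3 slides. Slide 1 held the proliferation arrays and day 2 array 1, slide 2 held day 2 arrays 2 and 3 and day 5 arrays 1 and 2, and slide 3 held day 5 array 3 and the day 8 arrays. Proliferation never shared a slide with day 5 or day 8, and a fit with a block for each slide is given beside the calls it changes. That fit, the slide block, kept 31.4% of the 7773 genes called at day 8 against proliferation, and 3.6% of them took the opposite sign.

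Between 56.9% and 69.5% of spots per array were well above background. The labelled lineage was checked on 8 muscle marker genes: at day 8, 5 rose and 1 fell. Among the rises were Myh3, the embryonic myosin heavy chain (8.44 ± 0.21, adjusted p = 1.1e-09), and Myog, the regulator myogenin (6.11 ± 0.24, adjusted p = 1.12e-08). Ckm, the muscle creatine kinase, rose by 7.48 ± 0.23 (adjusted p = 2.46e-09), or 5.19 with the normexp background correction on median signals (chosen after seeing the data), and was well above background on 1 of 3 proliferation arrays. This correction added an offset of 50 to each signal, which by arithmetic shrinks the log2 changes of dim probes most. Myf5, an early myogenic factor, fell by 0.46 ± 0.15 (adjusted p = 0.0207), a call that did not pass under the slide block (adjusted p = 0.205) or without proliferation array 1 (0.0585), day 8 array 1 (0.0719) or day 8 array 3 (0.0713). Normexp did not call that fall either (adjusted p = 0.192). Among markers of other cell types, Adipoq, Cidec and Plin1 (adipocyte) and Adgre1 and Itgam (macrophage) were well above background on no array. The 4 adipocyte markers, none of which passed the filter for testing, summed to 2% to 3.07% of the 75th percentile at proliferation, 0.819% to 1.14% at day 2, 0.546% to 1.14% at day 5 and 0.434% to 0.674% at day 8. The summed signal of the 4 endothelial markers was 21.3% to 29.4% of the 75th percentile at proliferation, 78.3% to 107% at day 2, 67.8% to 87.4% at day 5 and 48% to 61.9% at day 8. Of these, Tek rose at day 8 (1.98 ± 0.17, adjusted p = 3.79e-06) while Kdr fell by 3.18 ± 0.26 (adjusted p = 2.27e-06) and Cdh5 by 2.17 ± 0.37 (adjusted p = 5.46e-04, or 0.168 under the slide block). Both falls were smaller with normexp, where Kdr changed by -0.56 (adjusted p = 0.00843) and Cdh5, not called, by -0.26 (adjusted p = 0.281). Kdr was well above background on 1 of 3 day 8 arrays and Cdh5 on 2, so their sizes rest in part on signals near background. The 5 macrophage markers summed to 8.86% to 16.2% at proliferation, 11.4% to 14.8% at day 2, 13.2% to 14.9% at day 5 and 17.3% to 22.7% at day 8, where Aif1 (1.56 ± 0.28, adjusted p = 8.9e-04) and Csf1r (1.29 ± 0.17, adjusted p = 7.88e-05) rose and Tyrobp fell at least 5.51-fold (adjusted p = 7.31e-04, or 0.367 under the slide block). With normexp Tyrobp changed by -0.30 and was not called (adjusted p = 0.332). Under the slide block Csf1r was not called (adjusted p = 0.0758). Ckm and Aif1 passed the filter for testing only through stages after proliferation, and Kdr, Cdh5 and Tyrobp only through proliferation and day 2. Their day 8 differences were thus partly set by the filter. The part of cells of other types in the results below was not tested.

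All 13 probes passed the filter for testing, which required that some stage have all 3 arrays well above background. Cav3 passed it only through day 5 and day 8, and Trim72 only through the stages after proliferation, so for both a difference from proliferation was partly set by the filter. Against proliferation, Cav3, Dysf and Trim72 rose at day 8 and Bin1 and Anxa1 fell. All 3 rises were called under the slide block, that of Cav3 in part through signals below background. There Bin1 took the opposite sign and Anxa1 was not called. Cav1, Cav2, Myof, Ehd2 and Anxa2 were not called in that comparison, although Cav2 had been lower at day 2 and day 5. The 3 rises stand beside a background of 25.7% of 13742 genes called higher, and the 2 falls beside 30.8% called lower, or 56.6% in either direction. At day 5, 4 of 10 genes rose (24.3% of all genes) and 3 fell (25.5%), 7 in all beside 49.8%. At day 2, 3 rose (20.4%) and 1 fell (12.2%), 4 in all beside 32.6%. The day 2 count rests on single arrays: by limma it was 0 without proliferation array 1 (4 at an unadjusted p under 0.05), 2 without proliferation array 2 or day 2 array 1, and 1 without day 2 array 2. The median change over the 10 genes was -0.05 at day 2, -0.10 at day 5 and 0.04 at day 8, beside 0.10, -0.02 and -0.11 over all genes tested. Across the 4 stages 7 of 10 genes passed the F test of limma, where 68% of all genes did, a share near theirs.

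**Figure D1:**
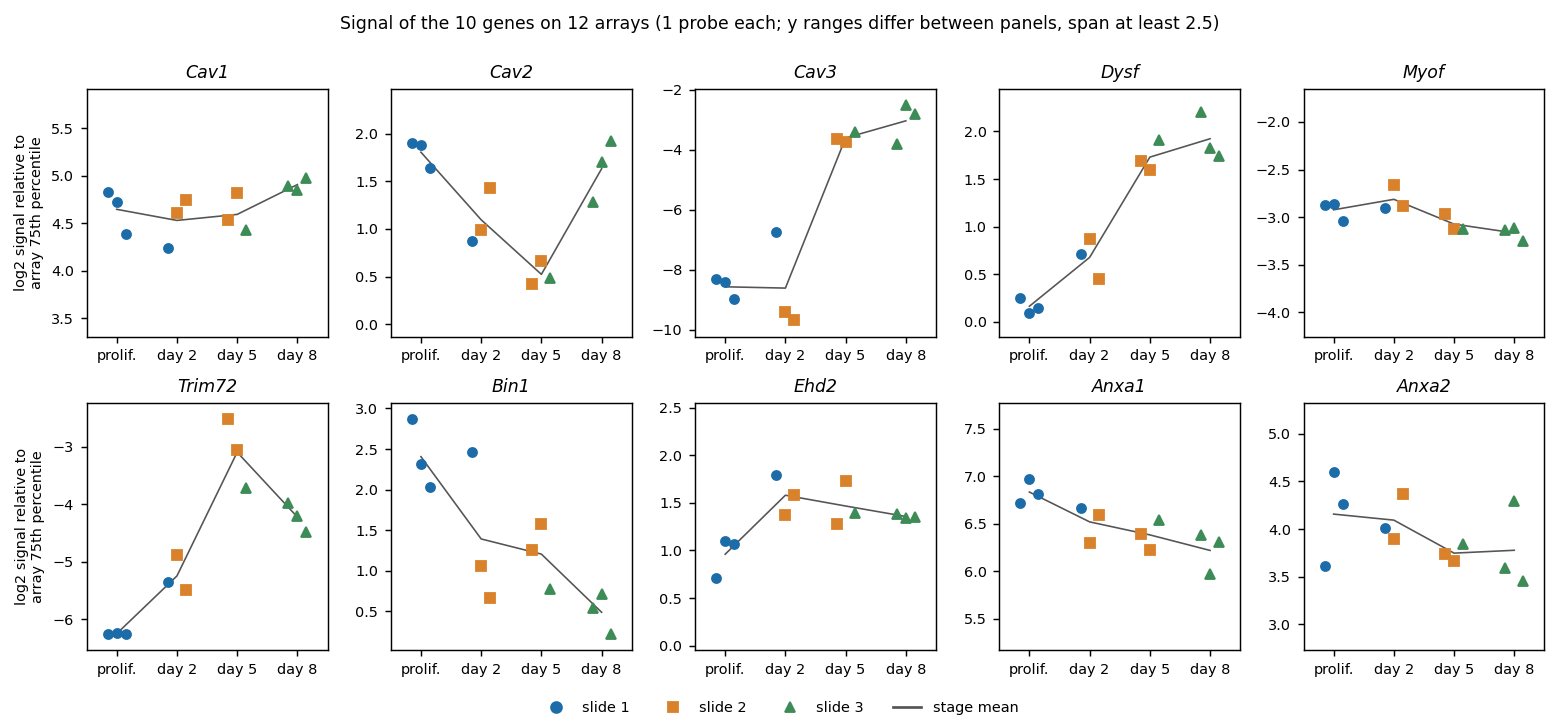
Log2 signal relative to the array's 75th percentile (y axis, scaled separately in each panel) for the 10 genes at proliferation and days 2, 5 and 8 (x axis), with a point for each array, shaped and coloured by slide, and a line through the stage means (1 probe per gene). The Cav3 points of proliferation and day 2 are below the background limit, and those of days 5 and 8 lie between -3.80 and -2.52. The Cav1 points lie between 4.24 and 4.98 at all stages. Levels cannot be compared between probes.

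Cav1 codes for caveolin-1, the structural protein of caveolae in most non-muscle cells. Its signal was 4.83, 4.72 and 4.39 on the proliferation arrays, 4.24, 4.61 and 4.74 at day 2, 4.53, 4.82 and 4.43 at day 5, and 4.89, 4.85 and 4.98 at day 8. The 3 day 8 arrays were the highest of the 12, but none of the 6 comparisons between stages was called by limma with the 75th percentile scaling. With normexp the fall to day 2 (-0.48, adjusted p = 0.0491) and the rise from day 2 to day 8 (0.76, adjusted p = 0.00427) were called, the latter also with quantile normalization (0.60, adjusted p = 0.0269). The change from proliferation to day 8 was 0.26 ± 0.17 (adjusted p = 0.224), and the F test gave an adjusted p of 0.237. All 12 values lay between 4.24 and 4.98, in a time course in which 49.8% of all genes were called at day 5 and 56.6% at day 8.

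Cav2 codes for caveolin-2, which enters caveolae together with caveolin-1. On its brighter probe the signal was 1.90, 1.88 and 1.64 at proliferation, 0.87, 0.99 and 1.43 at day 2, 0.42, 0.66 and 0.49 at day 5, and 1.28, 1.70 and 1.92 at day 8. The lowest values were those of day 5, which overlapped with no other stage, and the day 8 arrays overlapped with those of proliferation. Cav2 fell by 1.29 ± 0.20 from proliferation to day 5 (2.44-fold, adjusted p = 2.81e-04) and was higher again at day 8 than at day 5 by 1.11 ± 0.20 (adjusted p = 0.00663). Under the slide block the fall was 1.61 and remained called (adjusted p = 0.0138), while the rise after day 5 had an adjusted p of 0.0634.

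The second Cav2 probe read -0.89, -0.72 and -1.10 at proliferation, -2.44, -2.34 and -1.58 at day 2, -2.67, -2.72 and -2.49 at day 5, and -2.04, -1.57 and -2.04 at day 8. Both probes were thus lowest at day 5, and they parted at day 8. There the second probe was still below proliferation by a called fall of 0.98 ± 0.23 (adjusted p = 0.00421, or 0.0587 under the slide block), whereas the brighter probe differed by -0.17 ± 0.20 (adjusted p = 0.473). From day 5 to day 8 the second probe changed by 0.74 ± 0.23 (adjusted p = 0.0579), which missed the threshold.

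The day 2 fall of Cav2 was smaller, 0.71 ± 0.20 on the brighter probe (adjusted p = 0.019) and 1.22 ± 0.23 on the second (adjusted p = 0.00307). The slide block (adjusted p = 0.0531) and normexp (adjusted p = 0.0897) each cost the brighter probe this call. So did leaving out proliferation array 1 (0.0608), proliferation array 2 (0.06), day 2 array 1 (0.0742) or day 2 array 2 (0.0622). Its steps from day 2 were called on the brighter probe alone, a fall of 0.57 ± 0.20 to day 5 (adjusted p = 0.0466) and a rise of 0.54 ± 0.20 to day 8 (adjusted p = 0.0406). Over 21 alternative settings their adjusted p ranged from 0.0227 to 0.53 and from 0.0151 to 0.421, above the threshold in 17 and 13 of them.

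**Figure D2:**
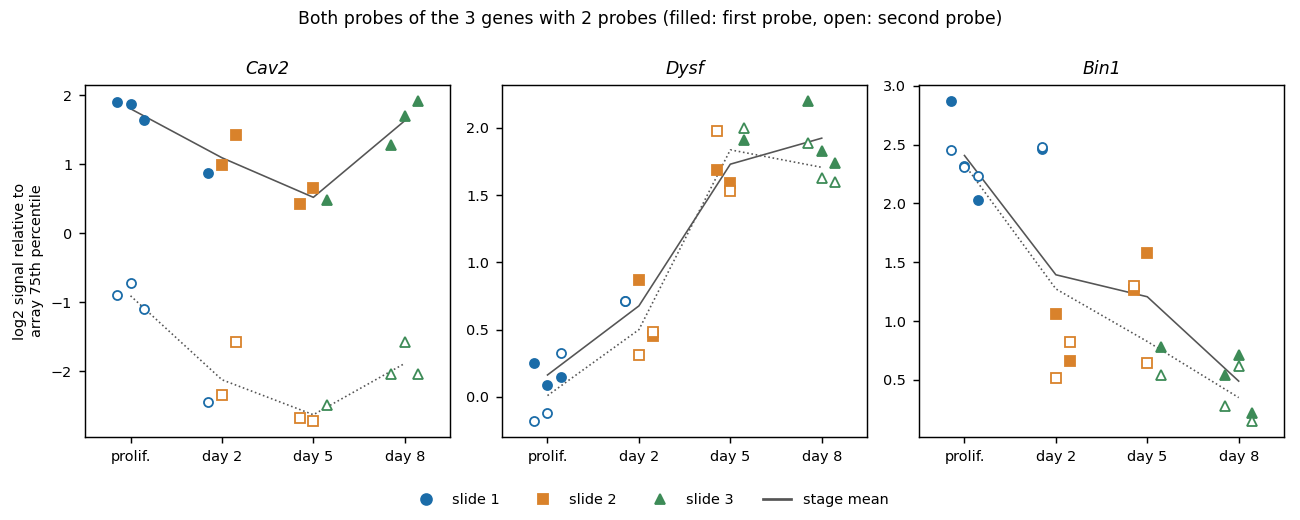
Log2 signal relative to the array's 75th percentile (y axis) by stage (x axis) on both probes of Cav2, Dysf and Bin1, with a point for each array by slide, filled for the brighter probe and open for the second, and lines through the stage means. The day 8 points of Cav2 reach the proliferation values on the brighter probe, 1.28 to 1.92 beside 1.64 to 1.90, but stay below them on the second.

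Cav3 codes for caveolin-3, the muscle form. The 300 bases around its transcription start, 250 before and 50 after, are shown because it was the only one of the 10 genes whose signal crossed the background limit between day 2 and day 5. They lie at chr6:112459255-112459554 on the plus strand of GRCm38.p6 and were taken from RefSeq. Capitals mark matches to CANNTG, the letters that basic helix-loop-helix factors such as MYOD1 and myogenin are known to bind.
Cav3: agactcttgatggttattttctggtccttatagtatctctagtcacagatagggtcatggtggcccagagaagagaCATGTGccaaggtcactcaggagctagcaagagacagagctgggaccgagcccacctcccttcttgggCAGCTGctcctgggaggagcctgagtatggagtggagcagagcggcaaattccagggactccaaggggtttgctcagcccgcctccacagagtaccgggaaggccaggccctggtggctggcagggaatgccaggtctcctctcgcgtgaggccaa
The matches begin 174 and 106 bases before the start, and the latter reads CAGCTG, a special case of the same pattern that counts under both. Of 32851 mouse promoter windows of this length, searched on both strands, 72.3% hold CANNTG and 16.3% hold CAGCTG.

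On the Cav3 probe the signal was -3.66, -3.75 and -3.42 at day 5 and -3.80, -2.52 and -2.80 at day 8, well above background on all 6 arrays. All arrays of proliferation (-8.32, -8.40 and -8.99) and day 2 (-6.74, -9.41 and -9.69) failed that limit, so these values are bounds and have no order. Cav3 rose at least 9.18-fold from proliferation to day 5 (adjusted p = 9.38e-05) and at least 13.6-fold to day 8 (adjusted p = 3.62e-05). For each bound, every dim array was given the lowest signal counted as well above background on it, or the probe's own signal where that was higher. From day 2 the rise was at least 13.6-fold to day 5 (adjusted p = 1.66e-04) and at least 20.2-fold to day 8 (adjusted p = 5.25e-05). Days 5 and 8 differed by 0.57 ± 0.65 (adjusted p = 0.59), with overlapping arrays. In these bulk samples, more cells that express Cav3 and more Cav3 RNA per cell cannot be told apart, which holds for every gene below.

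All 4 Cav3 rises were called under the slide block. The normexp correction kept them called at smaller sizes below these bounds, with 1.51 at day 5 (adjusted p = 6.39e-05) and 2.10 at day 8 (adjusted p = 2.61e-06) against proliferation. Its offset of 50 exceeds the mean Cav3 signal of 5.06 at proliferation, so these sizes are no check on the bounds. Between proliferation and day 2 the block gave a rise of 1.83 (adjusted p = 0.0271) where the fit without it gave -0.04 ± 0.65 (adjusted p = 0.97). Both values rest on signals below background, the former on day 2 array 1 alone, and neither was read as a change. The block values against proliferation, 7.67 at day 5 and 8.06 at day 8, contain this step of 1.83. Their sizes and adjusted p-values thus rest in part on it. The block values from day 2, 5.84 to day 5 and 6.23 to day 8, do not contain it.

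Ehd2 codes for an ATPase that sits at the neck of caveolae and holds them at the surface. Its signal was 0.71, 1.10 and 1.07 at proliferation, 1.79, 1.37 and 1.58 at day 2, 1.28, 1.73 and 1.39 at day 5, and 1.38, 1.34 and 1.35 at day 8. All 9 arrays after the change of serum were above the 3 proliferation arrays. Ehd2 rose by 0.62 ± 0.17 at day 2 (1.53-fold, adjusted p = 0.0178) and by 0.51 ± 0.17 at day 5 (1.42-fold, adjusted p = 0.0273). At day 8 the difference was 0.40 ± 0.17 and missed the threshold (adjusted p = 0.0619). The day 2 rise was 0.83 under the slide block (adjusted p = 0.0445), but leaving out proliferation array 1 (0.0652) or day 2 array 1 (0.07) lost the call. The day 5 rise was lost with the block (0.0777) and without proliferation array 1 (0.0989) or day 5 array 2 (0.102), whereas without that last array the day 8 rise was called (0.0477).

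Bin1 codes for amphiphysin 2, whose BAR domain bends membrane into the tubules of the T-system. On its brighter probe the signal was 2.87, 2.32 and 2.03 at proliferation, 2.46, 1.06 and 0.66 at day 2, 1.26, 1.58 and 0.78 at day 5, and 0.54, 0.71 and 0.22 at day 8. Day 2 array 1 lay among the proliferation arrays, with which it shared slide 1, while day 2 arrays 2 and 3, on slide 2, were lower than all of them. The second probe showed the same split, with 2.48 on day 2 array 1 and 0.52 and 0.82 on arrays 2 and 3.

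By stage means Bin1 fell by 1.20 ± 0.41 at day 5 (2.3-fold, adjusted p = 0.0337) and by 1.92 ± 0.41 at day 8 (3.78-fold, adjusted p = 0.00256). Under the slide block neither was called and both turned positive, 0.61 at day 5 (adjusted p = 0.369) and 0.32 at day 8 (adjusted p = 0.748). Within slides the brighter probe differed by 0.05 between day 2 and proliferation, 0.57 between day 5 and day 2, and -0.29 between day 8 and day 5. The second probe gave 0.15, 0.30 and -0.19. The direction for Bin1 thus depended on whether the slide was in the fit, and none was read. Its day 5 call was also lost without proliferation array 1 (0.118), proliferation array 2 (0.0647), day 5 array 1 (0.0675) or day 5 array 3 (0.117). Normexp lost that call as well (adjusted p = 0.0734). The day 2 difference of -1.02 ± 0.41 (adjusted p = 0.0863) became a called fall of 1.55 without day 2 array 1 (adjusted p = 0.00712).

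Dysf codes for dysferlin, the calcium-binding ferlin that brings repair vesicles to a torn membrane. RefSeq gives it 2 transcription starts on the plus strand of chromosome 6 of GRCm38.p6, at which the windows are chr6:84008348-84008647 and chr6:84019136-84019435. They are shown because the gene rose at days 5 and 8 on both probes and its starts can be compared with those of the other 2 genes that rose at day 8. Capitals again mark CANNTG.
Dysf start 1: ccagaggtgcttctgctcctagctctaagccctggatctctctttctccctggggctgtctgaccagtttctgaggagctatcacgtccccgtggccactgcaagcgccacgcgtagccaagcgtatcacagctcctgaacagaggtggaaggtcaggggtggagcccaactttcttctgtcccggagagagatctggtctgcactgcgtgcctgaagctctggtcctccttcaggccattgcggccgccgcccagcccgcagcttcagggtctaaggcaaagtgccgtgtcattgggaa
Dysf start 2: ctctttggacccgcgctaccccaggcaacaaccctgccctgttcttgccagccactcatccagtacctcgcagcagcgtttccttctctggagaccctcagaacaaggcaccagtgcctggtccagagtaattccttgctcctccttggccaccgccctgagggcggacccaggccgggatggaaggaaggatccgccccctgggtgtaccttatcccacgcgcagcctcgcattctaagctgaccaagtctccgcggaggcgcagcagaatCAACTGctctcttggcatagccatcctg
The first window holds no match, and the second holds CAACTG, whose first base is base 23 counted from the start site.

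The brighter Dysf probe read 0.25, 0.09 and 0.15 at proliferation, 0.71, 0.87 and 0.45 at day 2, 1.69, 1.59 and 1.91 at day 5, and 2.20, 1.83 and 1.74 at day 8. The stages did not overlap until day 5 and day 8, which shared a range. Dysf rose 2.97-fold to day 5 (1.57 ± 0.16, adjusted p = 1.7e-05) and 3.39-fold to day 8 (1.76 ± 0.16, adjusted p = 5.86e-06). Both were called under the slide block, at 1.53 (adjusted p = 0.00782) and 1.54 (adjusted p = 0.027). Most of the rise fell between day 2 and day 5, where it was 1.06 ± 0.16 (adjusted p = 5.39e-04) and 0.99 within slide 2. Over 21 alternative settings the adjusted p of this step reached 0.16 by limma, and 1 setting lost the call. Days 5 and 8 differed by 0.19 ± 0.16 (adjusted p = 0.468).

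The second Dysf probe, assigned to another accession of the gene, read -0.18, -0.12 and 0.33 at proliferation, 0.71, 0.31 and 0.48 at day 2, 1.98, 1.53 and 2.00 at day 5, and 1.89, 1.63 and 1.60 at day 8. It rose 3.54-fold to day 5 (1.82 ± 0.19, adjusted p = 1.73e-05) and 3.24-fold to day 8 (1.70 ± 0.19, adjusted p = 2.53e-05), close to the brighter probe. The spots of both Dysf probes were flagged as non-uniform on no array at proliferation or day 2. They were flagged on 2 of 3 arrays at day 5 and on all 3 at day 8, and were kept. At day 2 the probes differed in their call, with 0.51 ± 0.16 on the brighter one (adjusted p = 0.0351) and 0.49 ± 0.19 on the second (adjusted p = 0.0744). The former was lost under the slide block (0.146) and when any proliferation array was left out (0.0582, 0.101 and 0.0706 for arrays 1 to 3), and likewise for day 2 array 1 (0.0918), day 2 array 2 (0.119) and day 5 array 1 (0.0505). Normexp also lost that day 2 call of the brighter probe (adjusted p = 0.0584).

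Myof codes for myoferlin, a ferlin of myoblasts that is known for its part in their fusion. Its signal was -2.87, -2.86 and -3.04 at proliferation, -2.90, -2.66 and -2.88 at day 2, -2.97, -3.12 and -3.13 at day 5, and -3.14, -3.11 and -3.25 at day 8. All 12 arrays thus lay within a narrow range, between -3.25 and -2.66. Myof was not called against proliferation at any stage, with -0.24 ± 0.12 at day 8 (adjusted p = 0.11). The fall of 0.35 ± 0.12 from day 2 to day 8 was called (1.28-fold, adjusted p = 0.0329). It was lost under the slide block (0.419) and without day 2 array 2 (0.114), day 8 array 1 (0.0664) or day 8 array 3 (0.0977). Normexp did not call it either (adjusted p = 0.0922).

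Trim72 codes for a tripartite motif protein, largely confined to striated muscle, that seeds the repair patch. Its promoter window, from the same RefSeq source, is shown as the third of the genes that rose at day 8. It lies at chr7:128004128-128004427 on the plus strand of GRCm38.p6, with CANNTG in capitals.
Trim72: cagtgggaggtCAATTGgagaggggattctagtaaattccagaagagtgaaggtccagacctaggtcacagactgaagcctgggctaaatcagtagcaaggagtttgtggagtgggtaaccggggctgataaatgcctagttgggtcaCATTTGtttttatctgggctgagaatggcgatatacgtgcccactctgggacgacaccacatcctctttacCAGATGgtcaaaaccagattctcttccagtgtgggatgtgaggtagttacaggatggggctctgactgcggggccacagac
The 3 matches begin 239, 102 and 31 bases before the start, and none of them reads CAGCTG. Bin1 was left out of the promoter search. Of the 11 windows of the other 9 genes, those of Cav3 and Ehd2 hold CAGCTG. None holds the longer MEF2 or CArG patterns, which 3.19% and 1.63% of all windows hold. These are matches of letters only.

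Trim72 read -6.25, -6.24 and -6.26 at proliferation, well above background on 1 of these arrays, and -5.35, -4.89 and -5.50 at day 2. It was brightest at day 5, with -2.52, -3.06 and -3.71, and read -3.98, -4.20 and -4.49 at day 8. No stages overlapped, and the order was proliferation, day 2, day 8, day 5. Trim72 rose 8.9-fold to day 5 (3.15 ± 0.27, adjusted p = 4.42e-06) and 4.08-fold to day 8 (2.03 ± 0.27, adjusted p = 1.06e-04), where the proliferation mean rests in part on signals near background. Under the slide block the rises were 3.30 (adjusted p = 5.27e-04) and 2.79 (adjusted p = 0.00556). With normexp they were 2.04 (adjusted p = 5.57e-06) and 1.18 (adjusted p = 5.47e-04).

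The first step, to day 2, was 1.00 ± 0.27 (adjusted p = 0.0187). The block cost this call (0.0757), as did leaving out proliferation array 1 (0.0506) or day 2 array 2 (0.0716). From day 5 to day 8 Trim72 fell by 1.13 ± 0.27 (2.18-fold, adjusted p = 0.0254), which the background of 7.18% of genes called lower accompanies. The day 5 array on the slide of day 8 was the dimmest of its stage, and within that slide the difference was -0.51 (adjusted p = 0.378 with the block). That fall was also lost without day 5 array 1 (0.0846), day 5 array 2 (0.0673), day 8 array 2 (0.0621) or day 8 array 3 (0.086).

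Anxa1 and Anxa2 code for calcium-dependent phospholipid-binding proteins that gather at membrane wounds. Anxa1 read 6.72, 6.97 and 6.81 at proliferation, 6.67, 6.30 and 6.59 at day 2, 6.39, 6.22 and 6.54 at day 5, and 6.38, 5.97 and 6.31 at day 8. The 9 later arrays all lay below the 3 of proliferation. Anxa1 fell by 0.45 ± 0.16 at day 5 (1.37-fold, adjusted p = 0.0372) and by 0.61 ± 0.16 at day 8 (1.53-fold, adjusted p = 0.00774). The day 8 value was the same size under the slide block, -0.61, but was not called there (adjusted p = 0.313). The day 5 fall was lost with the block (-0.30, adjusted p = 0.523) and on leaving out proliferation array 2 (0.123), proliferation array 3 (0.0671), day 5 array 1 (0.0805) or day 5 array 2 (0.119). Normexp also lost that call (adjusted p = 0.0796).

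Anxa2 read 3.61, 4.60 and 4.26 at proliferation, 4.01, 3.90 and 4.37 at day 2, 3.74, 3.66 and 3.84 at day 5, and 3.59, 4.29 and 3.45 at day 8. The proliferation arrays alone spanned nearly the whole range of the gene. Anxa2 was not called in any of the 6 comparisons, with -0.38 ± 0.27 at day 8 (adjusted p = 0.265). With normexp it was called lower at day 5 (-1.0, adjusted p = 0.049) and day 8 (-1.11, adjusted p = 0.0276).

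**Figure D3:**
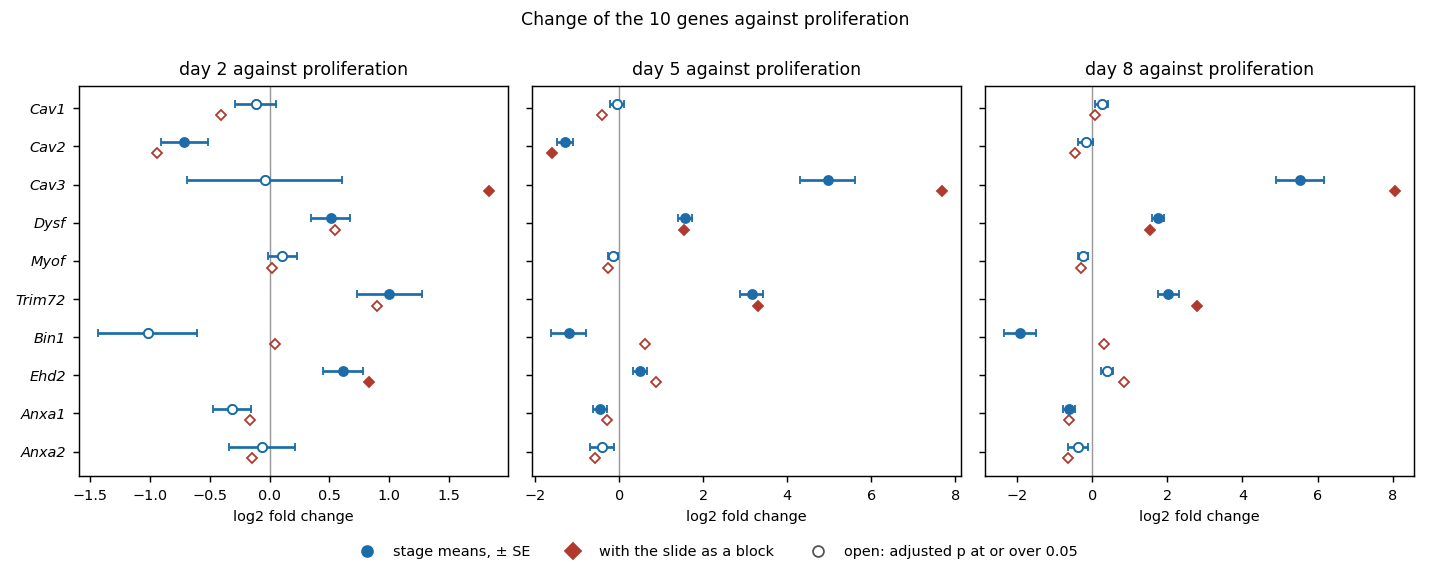
Log2 change of the 10 genes against proliferation at days 2, 5 and 8 ± SE of the limma fit, with the fit that has the slide as a block as diamonds without error bars (n = 3 arrays per stage, open symbols not called). Bin1 at day 8 moves from -1.92 to 0.32 between the fits, whereas Cav3, Dysf and Trim72 are above 0 at days 5 and 8 in both.

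From day 2 to day 5, Cav3, Dysf and Trim72 rose (13.6% of all genes did) and Cav2 fell (18%), beside 31.6% called in either direction. From day 2 to day 8, Cav3, Dysf, Trim72 and Cav2 rose (19.5%) and Myof fell (31%), beside 50.5%. Trim72 rose by 2.15 ± 0.27 (adjusted p = 1.49e-04) and 1.02 ± 0.27 (adjusted p = 0.0103) in these steps, the latter 0.51 and not called with normexp (adjusted p = 0.0858). From day 2 to day 8 Dysf rose by 1.25 ± 0.16 (adjusted p = 1.23e-04), a call lost with the block (0.0608). From day 5 to day 8, Cav2 rose (6.21%) and Trim72 fell (7.18%), beside 13.4%, and neither was called under the slide block.

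Related genes of the set were compared within arrays, since a difference between a pair of probes on the same array does not depend on the scaling. An exact permutation test over 369600 assignments of the arrays to stages, two-sided by its F statistic, asked whether the difference changed between stages, with p-values adjusted over the 4 pairs. Each p-value covers all 4 stages together and does not test a single step. From proliferation to day 8, Dysf gained 2.00 on Myof (adjusted p = 7.79e-04). Cav3 gained 5.27 on Cav1 (adjusted p = 0.0084), a size that rests on proliferation signals below background, and 1.82 with normexp (adjusted p = 0.00597). Cav2, on its brighter probe, lost 1.23 on Cav1 by day 5 and 0.43 by day 8 (adjusted p = 0.0013). With the median over the probes of a gene Cav2 lost 1.45 and 0.84 (adjusted p = 0.00221). Anxa2 and Anxa1 kept a difference that moved by 0.23 by day 8, with an SD of 0.39 at proliferation and 0.67 at day 8 (adjusted p = 0.849). When assignments were permuted only within slides, the 96 possible ones gave adjusted p-values of 0.111, 0.111, 0.0833 and 0.854 for these pairs in the order named.

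**Figure D4:**
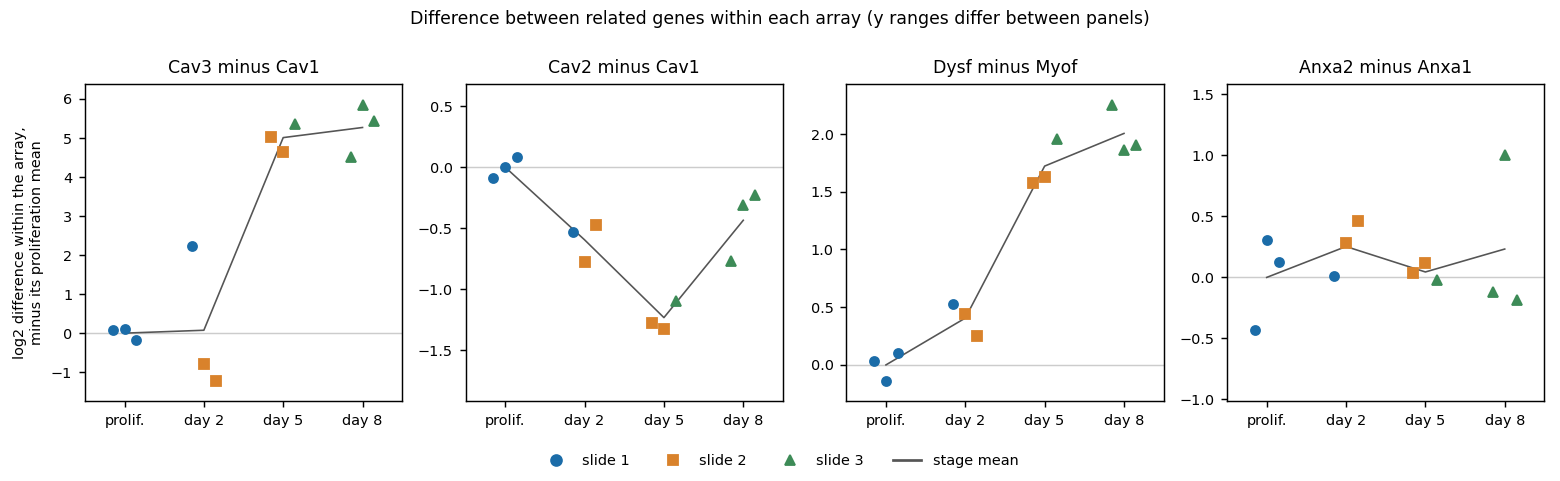
Within-array log2 difference of each pair (Cav3 minus Cav1, Cav2 minus Cav1, Dysf minus Myof, Anxa2 minus Anxa1), as the change from its proliferation mean, with a point for each array by stage and slide and a line through the stage means. Dysf minus Myof is 1.72 higher at day 5 and 2.00 higher at day 8 on average.

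The other genes of these structures were followed through 4 lists at day 8 against proliferation. The list for the caveola coat held Cavin1 to Cavin4, Pacsin1 to Pacsin3, Ehd1, Ehd3 and Ehd4, not all of them coat proteins. Of these 10 genes, 5 rose and 1 fell, with a median change of 0.71. Over all genes 25.7% were called higher and 30.8% lower, with a median of -0.11. The rises were led by the membrane-curving proteins Pacsin1 (4.08 ± 0.51, 16.9-fold, adjusted p = 6.18e-05) and Pacsin2 (1.55 ± 0.53, adjusted p = 0.0287) and by Cavin4, the muscle cavin (1.46 ± 0.32, 2.74-fold, adjusted p = 0.00288). Ehd1, a relative of Ehd2 that acts in endosome recycling, fell by 0.68 ± 0.16 (adjusted p = 0.00479). Under the slide block only 1 of the 10, Ehd3, was called: Pacsin1 had an adjusted p of 0.0682, Pacsin2 0.681, Cavin4 0.646 and Ehd1 0.661. Pacsin2 was also lost without proliferation array 2 (0.0834), proliferation array 3 (0.0586) or day 8 array 2 (0.0516). It passed the filter for testing only through days 5 and 8. The cavins expressed outside muscle as well, named here after their values were seen, were not called at day 8: Cavin1 changed by -0.41 ± 0.21 (adjusted p = 0.113), Cavin2 by -0.05 ± 0.21 (adjusted p = 0.858) and Cavin3 by 0.31 ± 0.14 (adjusted p = 0.0807). Without proliferation array 1, the Cavin1 fall was called at 0.67 (adjusted p = 0.00605). Cavin3 was called higher at day 2 (1.06 ± 0.14, adjusted p = 4.18e-04, or 0.0174 under the slide block). It was also called higher at day 5 (0.74 ± 0.14, adjusted p = 0.00129, or 0.159 under the block). Cavin1 and Cavin2 were not called at these days. From day 2 to day 8 Cavin3 fell by 0.74 (adjusted p = 0.00141) and Cavin1 by 0.76 (adjusted p = 0.0113). Neither fall was called under the block.

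Of 14 genes of the T-tubule and triad, the junction of tubule and calcium store, 11 rose and 1 fell beside the same 25.7% and 30.8%, with a median change of 1.67. Tcap, the titin cap protein, rose by 7.86 ± 0.23 (adjusted p = 1.88e-09), with 1 of 3 proliferation arrays well above background. Ryr1, the calcium release channel of the store, rose 61.9-fold (5.95 ± 0.18, adjusted p = 2.66e-09), and Trdn, the triadin that anchors calsequestrin to it, rose at least 5.67-fold (adjusted p = 1.64e-05), or by 1.32 with normexp (adjusted p = 1.25e-05), which is below that bound. Cacna1s, the voltage sensor of the tubule, fell by 0.95 ± 0.31 (adjusted p = 0.0231), a call lost under the slide block (0.617) and without proliferation array 1 (0.07), proliferation array 2 (0.0528) or day 8 array 2 (0.0811). With normexp it changed by -0.16 and was not called (adjusted p = 0.446). With the block 8 of the 14 were called, all of them rises, beside 3972 of 22959 tested probes called in either direction. Trdn and, of the same list, Sypl2 and Jph1 passed the filter for testing only through days 5 and 8. Tcap passed it only through stages after proliferation. Their rises from proliferation were thus partly set by the filter.

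Of 12 genes of the repair machinery on the array, 10 were tested and 5 fell beside 30.8% of all genes, with a median change of -0.37 and no rise by limma, against 1 at an unadjusted p under 0.05. Pdcd6, the calcium sensor ALG-2, was at least 8.43-fold lower (adjusted p = 0.00842). Pdcd6 passed the filter for testing only through proliferation, so this difference was partly set by the filter. Its partner Pdcd6ip, or ALIX, fell by 1.37 ± 0.33 (adjusted p = 0.00452). With normexp neither was called, Pdcd6 at -0.34 (adjusted p = 0.264) and Pdcd6ip at -0.39 (adjusted p = 0.145). Capn1, the calpain known to cleave dysferlin, fell by 0.80 ± 0.28 (adjusted p = 0.0301), a call lost on leaving out proliferation array 2 (0.09), proliferation array 3 (0.104), day 8 array 2 (0.0922) or day 8 array 3 (0.0907). With the block 0 of the 10 was called by limma (0 at an unadjusted p under 0.05), and Pdcd6 took the opposite sign (1.35, adjusted p = 0.606). Of 13 other annexins and their S100 partners, 12 were tested and 1 fell beside the same 30.8%, Anxa13 (1.27 ± 0.12 lower, adjusted p = 5.94e-06, and 0.0388 with the block). S100a10, the light chain that binds annexin A2, changed by -0.36 ± 0.16 (adjusted p = 0.0786).

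**Figure D5:**
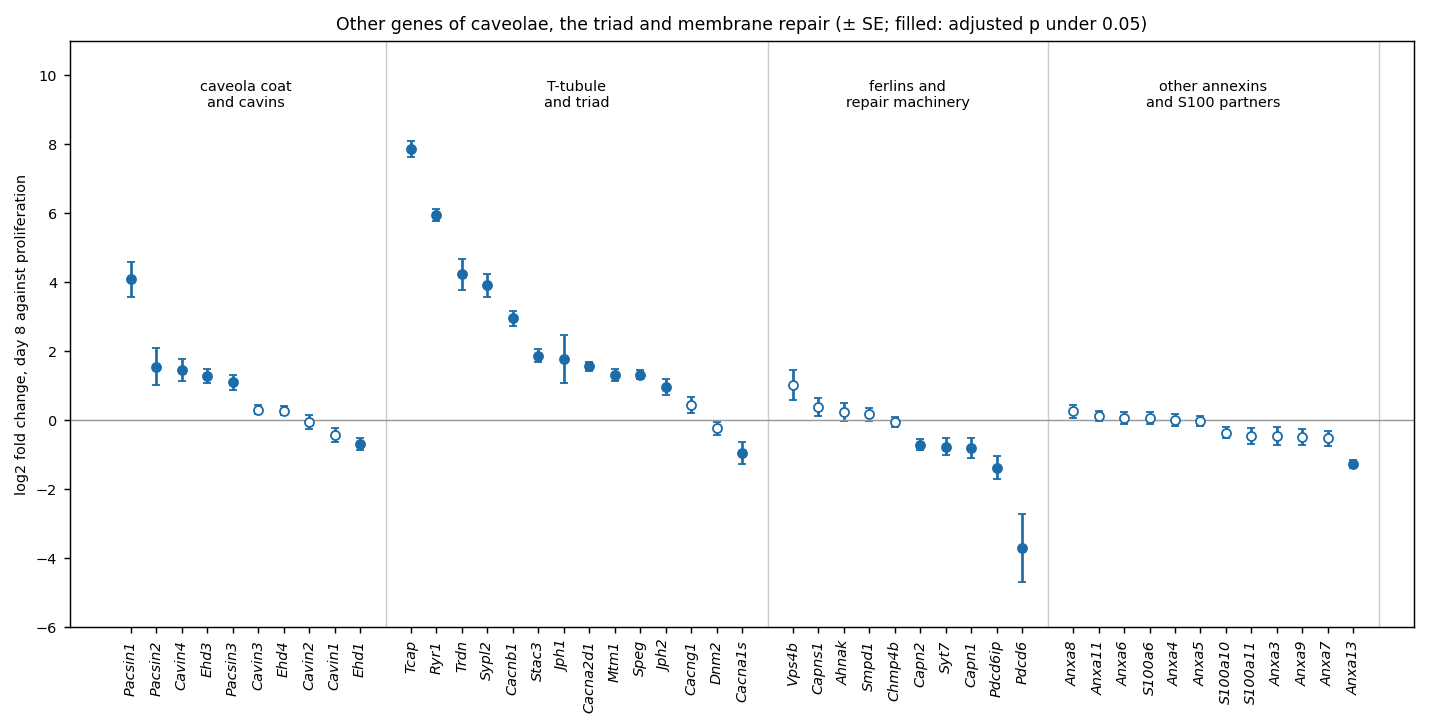
Log2 change ± SE at day 8 against proliferation (y axis) for each tested gene of the 4 lists (x axis), filled where the adjusted p is under 0.05. The T-tubule and triad genes run from 7.86 (Tcap) to -0.95 (Cacna1s), while Anxa13 is the only filled point among the annexins and S100 partners.

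By Pearson correlation over the 12 arrays, the tested genes most like Cav3 were Kcnc1, a voltage-gated potassium channel (0.9758), Ces2c, a carboxylesterase (0.975), and Scn4a, the sodium channel of skeletal muscle (0.9736). For Cav1 they were Trappc6b (0.9525), Usp32 (0.9358) and Sbno1 (0.9338). These are descriptions over 12 arrays that share stages and slides. For Cav3 they also used the signals of proliferation and day 2, all below background and without order. Its ranking thus rests in part on them.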

How the data were processed

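The authors deposited 1 scanner file per array, written by Agilent Feature Extraction 10.5.1.1 according to the submitters' processing notes. The quantity used is the software's processed green signal, a spot intensity with background treatment inside each array and none recorded between arrays, per the file headers. Genes were named by probe accession through a RefSeq list for GRCm38.p6. Control and negative spots were set aside, which left 37831 of 39448 spots and 37246 probes. Here each deposited intensity became a log2 value less the 75th percentile of its array, after averaging the spots of each probe, outliers aside. Spots flagged as non-uniform, 19.8% to 28.3% of spots per array, were kept. The brighter Bin1 probe and the probes of Ehd2 and Anxa2 were flagged on all 12 arrays. A single limma fit (3.58.1, in R 4.3.3 with version 1.17.8 of data.table) of stage means covered all 12 arrays and was tested on simulated data. Plots used Python 3.11.15, pandas 2.3.3 and matplotlib 3.10.9.

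Where a gene had several tested probes, the one brightest on average stood for it. The text names all 10 genes, up to 3 rises and 3 falls per list at day 8, the 3 genes most like Cav3 and Cav1, and markers. Members and lists were chosen with earlier results of these data known. The titles number the replicates alike at each stage, and it is not stated whether equal numbers mark a shared experiment. Deviations from stage means correlated between -0.155 and 0.243, over 0.1 in 5 of 18 same-numbered pairs. These values cannot settle it, since no values for differently numbered pairs stand beside them. The main fit did not pair the arrays. Alternatives changed the background correction, scaling, filter, slide block, replicate block, non-uniform spots, choice of probe and each array. The normexp alternative used median signals, since the files hold no mean signal, and an offset of 50. The number of arrays limits the precision.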

Additional observations from a re-analysis of the deposited data

How the results depend on the processing

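Over 21 alternative settings, 1045 of 1196 changes of the 10 genes kept their direction and their side of the threshold, 95 kept their direction and were no longer called, 14 were newly called and 42 took the opposite sign, 38 of these called in neither fit. The slide block turned Bin1 against proliferation at day 2 (0.048), day 5 (0.61) and day 8 (0.32) and against day 2 at day 5 (0.57) and day 8 (0.28), Cav3 at day 2 (1.83, from signals below background), Ehd2 from day 2 to day 5 (0.035) and day 8 (0.007), Anxa2 from day 5 to day 8 (-0.062) and, among the listed genes, Pdcd6 (1.35). Normexp turned Cav3 at day 2 (0.44), Myof at day 5 (0.015), Bin1 from day 2 to day 5 (0.017) and Anxa2 from day 5 to day 8 (-0.11). Quantile normalization turned Cav3 at day 2 (0.72) and Anxa1 from days 2 (0.045) and 5 (0.060) to day 8. Without non-uniform spots and with the percentile of all spots, Cav2 at day 8 was 0.003 and Cav3 from day 5 to day 8 was -0.26. With the percentile of the spots kept, day 2 values turned for Cav2 (0.12), Cav3 (0.57) and Anxa1 (0.25), Myof turned at day 5 (0.65) and day 8 (0.41), Cav2 (0.70), Ehd1 (0.12) and Myf5 (0.11) at day 8, and Cav3 from day 5 to day 8 (-0.38). That scaling moves the median of all probes to 0.74 at day 2, 0.81 at day 5 and 0.52 at day 8, from 0.07, -0.02 and -0.12, and leaves several of the bright genes without values, so its directions were not read. Leaving out 1 array turned changes that were called in neither fit. The values then ranged from -0.978 to 0.499 for Cav3 at day 2, -0.179 to 0.040 for Cav1 at day 5, -0.334 to 0.163 for Anxa2 at day 2, -0.143 to 0.044 for Cavin2 at day 8 and -0.244 to 0.029 for Cav1 at day 2. They ranged from -0.080 to 0.169 for Cav1 from day 2 to day 5, -0.550 to 0.351 for Bin1 from day 2 to day 5, -0.197 to 0.025 for Ehd2 from day 5 to day 8, -0.228 to 0.194 for Anxa2 from day 5 to day 8 and -0.316 to 0.003 for Cav2 at day 8. The causes of these turns were not tested.

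Counts of called genes among the 10 moved as follows. Under the slide block they were 2 at day 2, 4 at day 5 and 3 at day 8 against proliferation, 2 at day 8 against day 2, 0 at day 8 against day 5 (1 at an unadjusted p under 0.05, by limma), 4 by the F test and 10 in the lists, from 24. With no filter on dim probes they were 1 at day 2, 4 at day 5, 3 (day 8 against day 2) and 1 (day 8 against day 5). Without non-uniform spots and with the percentile of all spots they were 1, 4 and 2 at days 2, 5 and 8, 3 (day 8 against day 2), 3 by the F test and 11 in the lists. With the percentile of the spots kept they were 2, 3 and 2 at days 2, 5 and 8, 2 (day 5 against day 2), 2 (day 8 against day 2), 1 (day 8 against day 5), 2 by the F test and 11 in the lists. In both settings without non-uniform spots Cav1, Dysf, Bin1, Ehd2, Anxa1 and Anxa2 had no day 8 value, since all 3 arrays were flagged. The lower counts of these settings thus come in part from genes without values. Calls over all probes moved too. Against proliferation the slide block called 3518, 5212 and 3972 of 22959 probes at days 2, 5 and 8, from 7018, 10915 and 12573. From day 2 to day 8 the block called 3797, from 11259. Without non-uniform spots they were 3465, 5729 and 7067 with the percentile of all spots, and 5119, 6823 and 6164 with that of the spots kept. With no filter, 4942, 10097 and 12472 of 37246 probes were called. Permuting within slides gave adjusted p-values of 0.111 for Cav3 and Cav1, 0.0833 for Cav2 and Cav1 and 0.111 for Dysf and Myof. The second came from the smallest p that this test can give.

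Leaving out 1 array gave 0 to 4 calls at day 2 (0 without proliferation array 1, where 4 genes had an unadjusted p under 0.05 by limma, 2 without proliferation array 2 or day 2 array 1, and 1 without day 2 array 2), 5 to 7 at day 5, 5 to 6 at day 8, 3 to 4 from day 2 to day 5, 3 to 6 from day 2 to day 8, 1 to 2 from day 5 to day 8, 6 to 7 by the F test and 20 to 25 in the lists. The pairs ranged from 0.0013 to 0.0166 for Cav3 and Cav1, from 2.6e-04 to 0.00532 for Cav2 and Cav1, from 2.6e-04 to 0.00156 for Dysf and Myof and from 0.385 to 0.947 for the annexins. With the replicate block the counts were 5 at day 2, 7 at day 5 and 5 at day 8, beside 6757, 10833 and 12481 of 22959 probes. Normexp made 72.8%, 59.8% and 60.7% of calls at the 3 days higher, beside 60%, 49.9% and 46.3%. The paralogue test without non-uniform spots was not run, since no pair had values at all stages.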
